A study of Mus musculus with 12 samples.

Results

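Mouse genes whose symbol ends in Rik carry the provisional name of a cDNA clone from the RIKEN collection. Expressed Rik-named transcripts were taken as the gene-level rows of the deposited array table with a transcript-cluster identifier (starting TC or TS), such a symbol, and a mean log2 signal of 6.5 or more over the 12 arrays. Where a symbol had several rows, the row with the highest mean was kept. This gave 290 transcripts of 2493 Rik-named symbols on the array (11.6%), and 2203 symbols lay below the level. Members were chosen by their mean log2 signal, so the levels below are a description. The mean was taken over all 4 groups together, and differences between groups did not enter the choice, although a transcript that is high in 1 group can pass through that group. The last members inside were 1700052K11Rik at 6.530, 4732491K20Rik at 6.527 and 5430427O19Rik at 6.504 (mean log2 signal), and the first symbols outside were E130012A19Rik at 6.499, 5830454E08Rik at 6.494 and 5530601H04Rik at 6.483. In all, 13905 of 39463 genes (35.2%) reached 6.5.

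Many Rik symbols are later replaced when a protein or function is assigned, and others stay as long noncoding RNAs, transcripts that are spliced and polyadenylated like messenger RNA but encode no known protein. Such RNAs often lie beside or across a protein-coding gene, and some serve as hosts from which small nucleolar RNAs are cut. CD8 T cells are known to alter many noncoding transcripts after the T cell receptor is engaged. In the RefSeq gene table (GRCm38.p6), 267 of the 290 names were found, 192 as current symbols and 75 as older names, and 23 were not matched. Of the 290, 175 were protein-coding, 76 were long noncoding RNAs (lncRNAs) and 16 were of other types, mostly transcribed pseudogenes.

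The cells were splenocytes of OT-I, a mouse line whose CD8 T cells all carry a transgenic receptor for an ovalbumin peptide. They were cultured for 4 days in 4 groups of 3 arrays, namely Y3-primed cells with corticosteroid, Y3-primed cells, N4-primed cells with corticosteroid and N4-primed cells. N4 is the ovalbumin peptide itself, a strong agonist, and Y3 is an altered form that engages the receptor more weakly. All groups shared the receptor transgene and the peptide stimulation, and no group was left unprimed. The labels name neither the corticosteroid nor its dose, and they do not say whether biological replicates came from separate mice, so the p-values cover array-to-array spread that may include a technical component. The measurements are signals of total RNA from whole cultures, in which fewer cells of a type and less RNA per cell cannot be told apart.

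Array medians lay between 5.02 and 5.17 (log2 signal). All 7 CD8 T cell markers examined, Cd8a, Cd8b1 and the Cd3 chains among them, were above the brightest background control on all 12 arrays. Of the markers of other cells, Cd79b (B cells, 1 of 5), Cd74 (dendritic cells and macrophages, 1 of 7) and Zbtb7b (CD4 T cells, 1 of 3) were above it on all arrays, and 0 of 8 markers of NK cells, erythroid cells and neutrophils were. The summed signal of the B cell list was 7.60 to 8.10 in Y3-primed cells with corticosteroid against 7.23 to 7.72 in N4-primed cells with corticosteroid, and 7.57 to 8.28 in Y3-primed cells against 7.29 to 7.72 in N4-primed cells (log2). These B cell ranges overlapped. With corticosteroid in both groups, the lists of NK cells (5.94 to 6.72 in Y3-primed against 5.39 to 5.78 in N4-primed cells) and of CD4 and regulatory T cells (7.38 to 7.81 against 7.19 to 7.35) did not overlap, and without corticosteroid both did. Within Y3-primed cells the NK list was also higher with corticosteroid than without (5.34 to 5.72), and the dendritic cell and macrophage list was lower, at 7.77 to 7.88 with corticosteroid against 7.98 to 8.44 without. The part of these lists in the differences between groups was not tested. Arrays of the same replicate number deviated together from their group means, with correlations of 0.11 to 0.82 over the 18 pairs of arrays, against -0.70 to 0.48 for the 36 pairs with different numbers. Beside the limma fit with a mean per group, results are therefore given from a second limma fit with the replicate number as a block, called the paired fit below. Across peptides, replicate 2 did not match its own number best. Y3 replicate 2 correlated at 0.11 with N4 replicate 2 and at 0.42 with N4 replicate 3. With corticosteroid in both groups these correlations were 0.27 and 0.40. The paired fit rests on this pairing, which the labels do not state. "Rose" and "fell" are used of transcripts past a Benjamini-Hochberg adjusted p of 0.05 over all 39463 genes in the paired fit.

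The promoters of 6 transcripts are shown first because the results turn on these transcripts. A930006K02Rik lies next to the interferon receptor gene Ifnar1, 9330175E14Rik lies across Nlrc5, C130026I21Rik is a relative of Sp100, 2010016I18Rik and C920009B18Rik are lncRNAs whose neighbouring genes were not called, and Hpf1 is a protein-coding gene that was lower under Y3. Each runs from 250 bases before to 50 bases after the RefSeq start site (build GRCm38.p6), 5′ to 3′ on the strand of the gene, with matches of the searched motifs in capitals.
A930006K02Rik, chr16:91464854-91465153, plus strand: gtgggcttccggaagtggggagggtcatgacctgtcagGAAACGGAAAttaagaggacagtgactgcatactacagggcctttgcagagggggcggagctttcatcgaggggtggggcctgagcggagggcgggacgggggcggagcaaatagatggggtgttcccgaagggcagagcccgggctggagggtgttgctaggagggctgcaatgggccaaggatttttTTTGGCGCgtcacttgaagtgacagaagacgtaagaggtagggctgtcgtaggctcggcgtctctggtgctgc
9330175E14Rik, chr8:94435054-94435353, minus strand: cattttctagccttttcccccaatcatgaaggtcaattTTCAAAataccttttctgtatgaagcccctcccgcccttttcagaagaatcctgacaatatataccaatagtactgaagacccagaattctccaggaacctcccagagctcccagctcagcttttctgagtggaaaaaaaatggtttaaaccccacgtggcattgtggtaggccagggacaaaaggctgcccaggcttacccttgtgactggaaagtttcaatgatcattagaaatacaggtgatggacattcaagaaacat
C130026I21Rik, chr1:85270517-85270816, minus strand: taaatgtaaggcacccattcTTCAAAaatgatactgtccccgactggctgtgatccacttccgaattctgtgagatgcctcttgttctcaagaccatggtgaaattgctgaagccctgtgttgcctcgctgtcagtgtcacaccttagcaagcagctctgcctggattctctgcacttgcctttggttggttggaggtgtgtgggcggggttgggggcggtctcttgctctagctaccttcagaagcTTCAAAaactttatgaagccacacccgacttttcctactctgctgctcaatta
2010016I18Rik, chr3:106485864-106486163, minus strand: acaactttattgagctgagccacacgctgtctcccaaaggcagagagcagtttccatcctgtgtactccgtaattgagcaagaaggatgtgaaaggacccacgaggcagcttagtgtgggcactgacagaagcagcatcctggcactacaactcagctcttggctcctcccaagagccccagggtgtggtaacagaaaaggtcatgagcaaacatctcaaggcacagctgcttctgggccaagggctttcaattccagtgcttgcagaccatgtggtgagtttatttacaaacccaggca
C920009B18Rik, chr10:22306532-22306831, plus strand: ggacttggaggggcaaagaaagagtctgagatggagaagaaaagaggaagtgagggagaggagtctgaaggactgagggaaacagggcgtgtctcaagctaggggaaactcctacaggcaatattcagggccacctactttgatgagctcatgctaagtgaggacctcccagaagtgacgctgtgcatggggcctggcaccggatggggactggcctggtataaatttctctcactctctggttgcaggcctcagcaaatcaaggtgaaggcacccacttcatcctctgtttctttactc
Hpf1 (2700029M09Rik), chr8:60890178-60890477, plus strand: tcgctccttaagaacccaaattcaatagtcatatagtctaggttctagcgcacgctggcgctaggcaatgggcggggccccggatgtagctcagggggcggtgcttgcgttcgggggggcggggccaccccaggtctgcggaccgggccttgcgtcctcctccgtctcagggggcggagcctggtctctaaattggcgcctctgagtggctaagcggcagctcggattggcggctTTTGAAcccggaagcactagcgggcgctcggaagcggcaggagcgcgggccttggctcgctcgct
The motifs were searched on both strands with the letters GAAA, NN and GAAA in a row (interferon response), GNACA, NNN and TGTNC in a row (glucocorticoid response), TGANTCA (AP-1), TTTGGCGC (E2F), TTTGAA (cell cycle homology region) and TGATGNAAT (ATF4). The A930006K02Rik window held the interferon letters 212 bases and the E2F letters 23 bases before the start site. The capitals in the promoters of 9330175E14Rik, C130026I21Rik and Hpf1 mark TTTGAA, on the minus strand in 9330175E14Rik and C130026I21Rik. Over all 32851 promoters in the RefSeq table, 3.44% held the interferon letters and 17.9% held TTTGAA. Over the 241 promoters of members these shares were 1.24% and 13.3%, and the glucocorticoid letters were in 0.415% of member promoters and 0.475% of all promoters. Among the 36 promoters of members that rose in Y3-primed cells, 1 held the interferon letters and 5 (13.9%) held TTTGAA, and among the 11 of members that fell, 0 and 2 (18.2%) did.

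Member means over all arrays ran from 6.504 to 18.27 with a median of 7.83 (log2 signal). No member lay under the brightest background control on all 3 arrays of any group, and 8 lay under it on at least 1 array. The negative controls of the array, probes with no target, had a 95th percentile of 8.75 to 9.68, and 46 members were above it on all 12 arrays. Most members were therefore within the range of the brighter negative controls. The variance of each member over the 12 arrays was split by source. The replicate number took a median of 40.4%, the peptide 21.7%, the corticosteroid 2.1% and their interaction 0.831%. Over all 13905 genes at the same level the medians were 42.7%, 15.8%, 2.62% and 0.84%. The replicate number was the largest source in 141 members, the peptide in 77, the remaining spread in 66, the corticosteroid in 4 and the interaction in 2.

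The first comparison asked which Rik-named transcripts differed between Y3-primed and N4-primed cells without corticosteroid. In the paired limma fit 33 of the 290 differed, 26 higher and 7 lower in Y3-primed cells, against 2.94% of all genes tested (1.7% higher and 1.24% lower) and 6.76% of the other genes at 6.5 or more. Those that rose included the guanine nucleotide exchange factor gene Arhgef18, the large protein gene 4932438A13Rik and 15 lncRNAs, and those that fell included the DNA damage gene Hpf1. Without the block limma called 0 members (50 at an unadjusted p under 0.05) and 12 genes in all (0.0304%, with 0.0152% higher and 0.0152% lower). With corticosteroid in both groups, 46 members differed in the paired fit, 34 higher and 12 lower in Y3-primed cells, against 6.53% of all genes (3.44% higher and 3.09% lower) and 15.4% of the other genes at 6.5 or more. The share of members, 15.9%, was thus close to that of genes of like level. Without the block the count was again 0 (49 at an unadjusted p under 0.05), with 101 genes in all (0.256%, with 0.0786% higher and 0.177% lower).

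The counts depended on single arrays. Without corticosteroid, 33 members became 10, 4 and 10 in the paired fit when N4 replicate 1, 2 or 3 was left out, 21 without N4 plus corticosteroid replicate 2, and 15, 12 and 3 without Y3 replicate 1, 2 or 3. With corticosteroid, 46 became 22, 21 and 28 without N4 plus corticosteroid replicate 1, 2 or 3, and 26 and 14 without Y3 plus corticosteroid replicate 1 or 2. Across the 12 such fits, 3 members kept their call without corticosteroid and 13 with it. At a member level of 7.0, 29 and 41 were called. The 33 and the 46 members each had the same direction in 3 of 3 replicate pairs. The paired fit that called them favours such agreement, so this is not separate support for the calls. The Y3 and N4 values did not overlap for 11 and 23 of them. Over all members the Y3 values lay wholly above the N4 values in 8.97% without and 14.8% with corticosteroid, against 5.24% and 7.91% of all genes. They lay wholly below in 5.17% and 8.28%, against 6.06% and 8.59%. For all genes at 6.5 or more the shares were 6.72% and 10.5% above, and 7.95% and 11.8% below. For the negative controls at 6.5 or more they were 8.43% and 16.2% above, and 2.35% and 2.62% below. The shares of members wholly above were thus close to those of probes with no target.

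The peptide comparisons without and with corticosteroid share no array, although they share 1 estimate of the spread. They also share the replicate numbers. Same-numbered arrays with and without corticosteroid deviated together, at 0.80, 0.65 and 0.81 under N4 and 0.75, 0.54 and 0.52 under Y3. The 2 comparisons are therefore not independent, and the overlap over all genes is not given here. Of 26 members higher without corticosteroid, 20 were also higher with it (76.9% of the first and 58.8% of the second list). Of 7 lower without it, 6 were lower with it (85.7% of the first list and 6 of 12 in the second). Of 53 members called in either, 0 were called in opposite directions and 53 had the same sign in both, as had 253 of all 290. Across the 290 members the differences correlated at r = 0.90, a description over transcripts, which are not independent replicates.

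**Figure D1:**
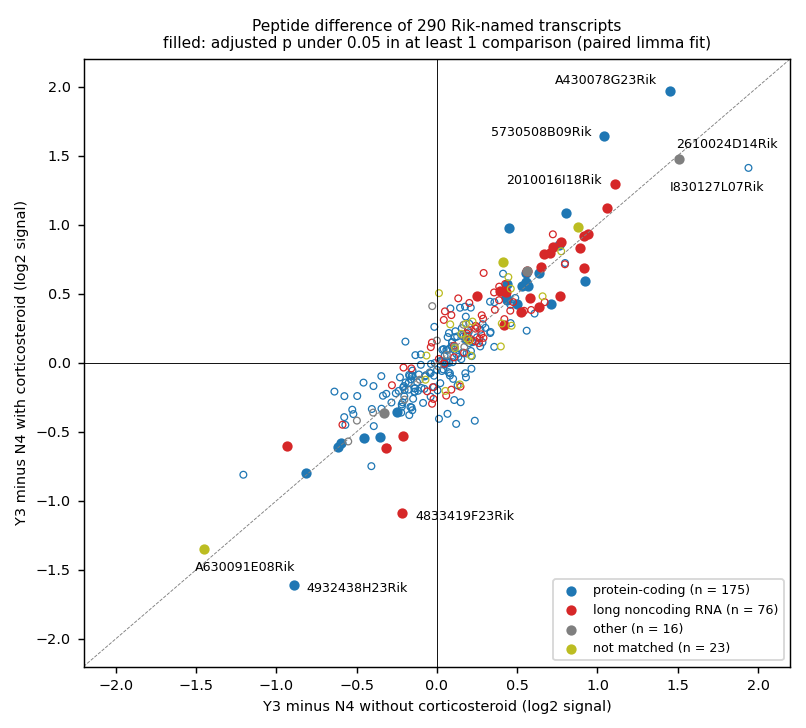
Y3 minus N4 difference (log2 signal) of each of the 290 transcripts without corticosteroid (horizontal axis) and with it (vertical axis), coloured by RefSeq type, with filled points for those called in at least 1 comparison by the paired limma fit. The filled points lie at the lower left and the upper right, and the lncRNAs in red are mostly above 0.

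Among protein-coding members, 10 of 175 rose and 5 fell without corticosteroid (5.71% and 2.86%), against 4.44% and 3.52% of the 8693 other protein-coding genes at 6.5 or more. With corticosteroid 14 rose and 7 fell (8.0% and 4.0%), against 7.19% and 7.81%. With single arrays left out of the paired limma fit, the 10 became 4, 3 and 3 without N4 replicate 1, 2 or 3, and 5 and 2 without Y3 replicate 1 or 3. The 14 became 9 without N4 plus corticosteroid replicate 1, 2 or 3, and 8 and 5 without Y3 plus corticosteroid replicate 1 or 2. The largest rise was in A430078G23Rik, an older name of Arhgef18, which encodes an exchange factor that loads small signalling proteins with GTP. It was at 7.82, 8.32 and 8.30 (log2 signal) in Y3-primed cells, against 5.99, 7.23 and 6.86 in N4-primed cells. With corticosteroid it was at 8.81, 9.46 and 9.35 in Y3-primed cells, against 6.43, 7.91 and 7.37 in N4-primed cells. The groups did not overlap in either comparison, and replicate 1 was the lowest in each group. The difference was 1.45 ± 0.17 without corticosteroid (log2, SE of the paired limma fit, adjusted p = 0.00462, and 0.298 without the block) and 1.97 ± 0.17 with it (adjusted p = 0.00108, and 0.0787 without the block), 2.74-fold and 3.92-fold. The array has a second row named Arhgef18, which followed the first at r = 0.997 over the 12 arrays and differed by 1.39 and 1.76. Whether the 2 rows read separate RNA was not tested.

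4932438A13Rik encodes a very large protein of a family that moves lipids between membranes. Its signal was 10.46, 10.64 and 11.04 in Y3-primed cells, against 9.33, 10.23 and 10.18 in N4-primed cells. With corticosteroid it was 11.05, 11.66 and 11.37 in Y3-primed cells, against 9.74, 10.65 and 10.43 in N4-primed cells, and the groups did not overlap in either comparison. It rose by 0.80 ± 0.16 and 1.09 ± 0.16 (log2, SE, paired limma fit, adjusted p = 0.0301 and 0.00559). D930015E06Rik, now Tmem131l, known as a regulator of Wnt signalling in thymocytes, rose by 0.76 ± 0.10 and 0.85 ± 0.10 (adjusted p = 0.00683 and 0.00277), and kept its call in all 12 leave-one-out fits of both comparisons. Its Y3 and N4 values overlapped, and replicate 1 was the lowest in each group, at 9.32 in Y3-primed cells against 8.79 in N4-primed cells. 4833420G17Rik rose by 0.63 ± 0.10 and 0.65 ± 0.10. 4930486L24Rik was at 7.82, 8.64 and 8.15 in Y3-primed cells, against 6.83, 8.18 and 6.84 in N4-primed cells, and rose by 0.92 ± 0.20 (adjusted p = 0.0427), while with corticosteroid it differed by 0.60 ± 0.20 (adjusted p = 0.124).

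5730508B09Rik, now Fam241a, varied widely between replicates. It was at 10.83, 13.32 and 12.08 in Y3-primed cells with corticosteroid, against 9.17, 10.84 and 11.30 in N4-primed cells with corticosteroid. The difference was 1.64 ± 0.37 (log2, SE, paired limma fit, adjusted p = 0.0306, and 0.545 without the block), and 1.04 ± 0.37 without corticosteroid (adjusted p = 0.190). D830031N03Rik was at 11.77, 12.18 and 12.12 in Y3-primed cells with corticosteroid, against 10.90, 11.28 and 10.98 in N4-primed cells with corticosteroid, and was higher by 0.98 ± 0.15 (adjusted p = 0.00649). Without corticosteroid it was at 11.41, 11.21 and 11.73 against 10.75, 11.16 and 11.09, a difference of 0.45 (adjusted p = 0.150), so the call was made with corticosteroid in both groups and not without it. The difference between the comparisons did not pass (interaction, limma, adjusted p = 0.9999).

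Among lncRNAs, 15 of 76 rose and 1 fell without corticosteroid (19.7% and 1.32%), and 16 rose and 3 fell with it (21.1% and 3.95%). Of the 120 other lncRNAs at 6.5 or more, 13.3% rose and 0.833% fell without corticosteroid, and 17.5% and 1.67% with it. Of all genes tested, 1.7% rose and 1.24% fell without corticosteroid, and 3.44% and 3.09% with it. 2010016I18Rik differed most. Its signal was 10.58, 12.56 and 12.66 in Y3-primed cells, against 9.64, 11.15 and 11.69 in N4-primed cells, and with corticosteroid 10.98, 13.06 and 12.58 in Y3-primed cells, against 9.26, 11.48 and 12.004 in N4-primed cells. The groups overlapped, with replicate 1 at least 1 log2 unit under the others in each of them, and the rise was seen within pairs, at 0.94, 1.41 and 0.98 without corticosteroid. It amounted to 1.11 ± 0.21 and 1.29 ± 0.21 (log2, SE, paired limma fit, adjusted p = 0.0279 and 0.00898, and 0.833 and 0.691 without the block). It was the only lncRNA of those called that was above the 95th percentile of the negative controls on all 12 arrays.

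C920009B18Rik was at 8.37, 9.25 and 9.42 in Y3-primed cells, against 7.76, 8.57 and 8.76 in N4-primed cells, and with corticosteroid at 8.39, 9.10 and 9.20, against 7.60, 8.32 and 8.69. It rose by 0.65 ± 0.08 and 0.69 ± 0.08 (log2, SE, paired limma fit, adjusted p = 0.00592 and 0.00291) and was the lncRNA whose call held in all 12 leave-one-out fits of both comparisons. The 3 pairs were all higher, and the groups overlapped, with replicate 1 the lowest in each. A930006K02Rik was at 8.15, 8.27 and 8.41 in Y3-primed cells, against 6.85, 7.71 and 7.61 in N4-primed cells, and with corticosteroid at 8.14, 8.10 and 8.39, against 6.80, 7.53 and 7.81. These groups did not overlap, and the rise was 0.89 ± 0.18 and 0.83 ± 0.18 (adjusted p = 0.0348 and 0.0262). A730017L22Rik (0.92 ± 0.16 and 0.92 ± 0.16), A930024E05Rik (0.77 ± 0.14 and 0.87 ± 0.14) and D330041H03Rik (0.56 ± 0.11 and 0.66 ± 0.11) rose in both comparisons with groups that did not overlap. 4930417O13Rik (1.06 ± 0.23 and 1.12 ± 0.23), 4933412E12Rik (0.94 ± 0.16 and 0.93 ± 0.16) and A930005H10Rik (0.92 ± 0.14 and 0.68 ± 0.14) rose in both with overlapping groups. The unmatched name 4930570N18Rik rose by 0.88 ± 0.15 and 0.98 ± 0.15.

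**Figure D2:**
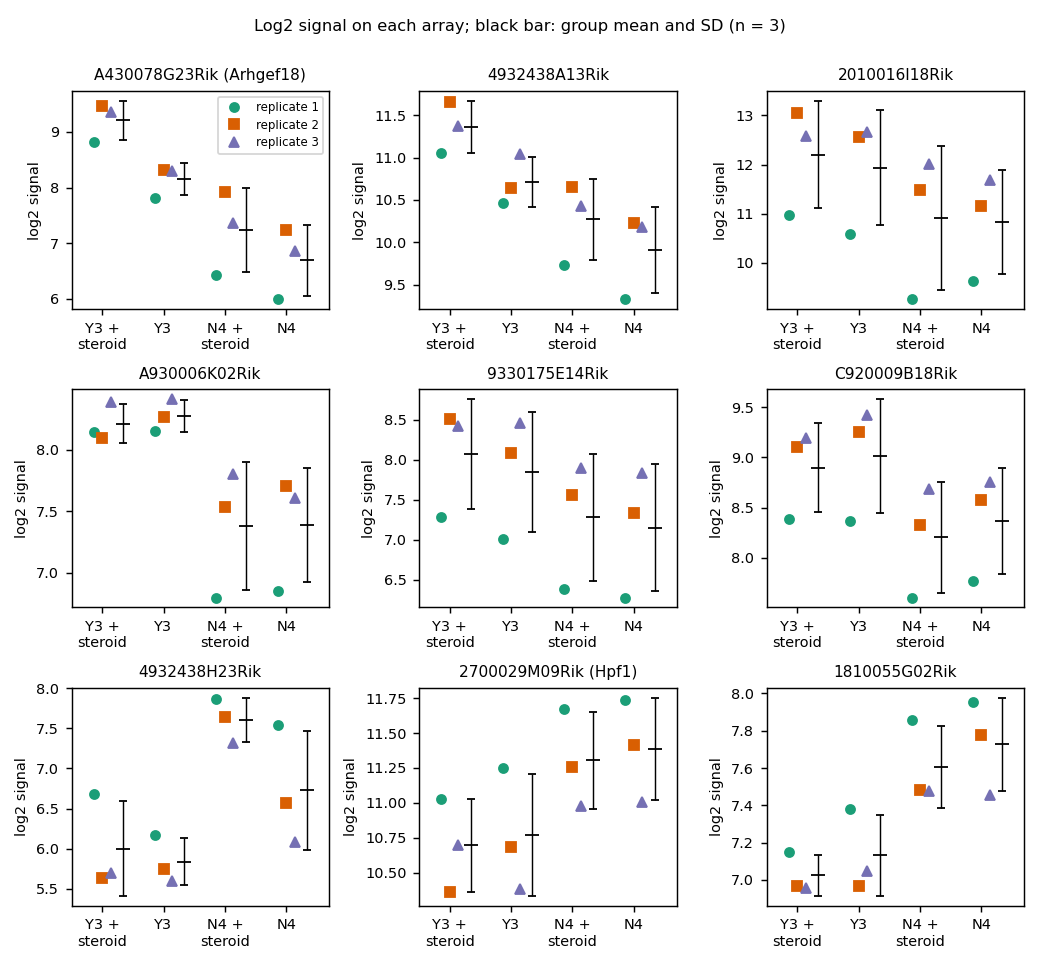
Log2 signal of 9 transcripts on each of the 12 arrays, by group, with the symbol and colour showing the replicate number and the black bar the group mean and SD (n = 3). The 6 upper panels rose in Y3-primed cells and the 3 lower panels fell, and replicate 1 is mostly the lowest in the upper panels.

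The members that fell were fewer. 2700029M09Rik, now Hpf1, a partner of PARP1 in the ADP-ribosylation that follows DNA damage, was at 11.25, 10.68 and 10.39 in Y3-primed cells, against 11.74, 11.41 and 11.01 in N4-primed cells. With corticosteroid it was at 11.03, 10.37 and 10.70 in Y3-primed cells, against 11.68, 11.26 and 10.98 in N4-primed cells. It was lower in 3 of 3 pairs in both comparisons with overlapping groups, and fell by 0.61 ± 0.13 in each (log2, SE, paired limma fit, adjusted p = 0.0465 and 0.0293). 4932438H23Rik was at 6.68, 5.63 and 5.69 in Y3-primed cells with corticosteroid, against 7.87, 7.64 and 7.32 in N4-primed cells with corticosteroid, where it differed by -1.61 ± 0.18 (adjusted p = 0.00261). Without corticosteroid it was at 6.17, 5.75 and 5.59 against 7.54, 6.57 and 6.08, a difference of -0.89 ± 0.18 (adjusted p = 0.0396), and some of these values are near the background line of 5.41 to 6.40. 1810055G02Rik fell by 0.60 ± 0.09 and 0.58 ± 0.09 with groups that did not overlap. 1810037I17Rik differed by -0.81 ± 0.17 and -0.80 ± 0.17, and 2700097O09Rik by -0.46 ± 0.08 and -0.55 ± 0.08. The unmatched A630091E08Rik differed by -1.45 ± 0.31 and -1.35 ± 0.31, with 1 value of 5.39 in Y3-primed cells with corticosteroid. The lncRNA F730043M19Rik fell without corticosteroid, by 0.93 ± 0.16 (adjusted p = 0.0181), and differed by -0.60 ± 0.16 with it (adjusted p = 0.0578).

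A further 6 members were lower in Y3-primed cells when both groups had corticosteroid and were not called without it. 2700094K13Rik, now Selenoh, a nuclear selenoprotein, was at 8.19, 7.78 and 7.70 in Y3-primed cells with corticosteroid, against 8.47, 8.38 and 8.44 in N4-primed cells with corticosteroid, and fell by 0.54 ± 0.10 (log2, SE, paired limma fit, adjusted p = 0.0174). 1810032O08Rik, now Snhg16, the host of the small nucleolar RNAs Snord1a, Snord1b and Snord1c, was at 6.80, 7.29 and 7.66 against 7.72, 7.69 and 7.93, and fell by 0.53 ± 0.12 (adjusted p = 0.0344). The lncRNA 4833419F23Rik was at 7.77, 7.43 and 7.08 against 8.74, 8.78 and 8.03, a difference of -1.09 ± 0.19 (adjusted p = 0.0116). The Y3 and N4 values of these 3 members did not overlap. The lncRNA 5430416N02Rik (-0.62 ± 0.12), the pseudogene 3000002C10Rik (-0.36 ± 0.09) and 1110004F10Rik (-0.36 ± 0.08) also fell. Without corticosteroid the same 6 differed by -0.36, -0.21, -0.22, -0.32, -0.33 and -0.25 in this order, none past the threshold in the paired limma fit (smallest adjusted p = 0.0962). The difference between the 2 comparisons did not pass for any member, as given under the interaction.

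The lncRNAs as a class differed by a median of 0.264 (log2) without corticosteroid and 0.318 with it, and 61 and 59 of the 76 were above 0. The protein-coding members differed by 0.0533 and -0.0149, and all genes tested by -0.00255 and -0.00676. By replicate pair the lncRNA medians were 0.226, 0.182 and 0.483 without corticosteroid and 0.287, 0.220 and 0.245 with it. When each array was left out, the lncRNA medians ran from 0.215 to 0.302 and from 0.297 to 0.334 in the paired fit. In the fit without the block they ran from 0.171 (without Y3 replicate 3) to 0.366, and with corticosteroid from 0.194 (without N4 plus corticosteroid replicate 1) to 0.363. The protein-coding medians changed sign, with ranges in the paired fit from -0.0154 (without N4 replicate 3) to 0.0786 and from -0.0456 to 0.0215 (without N4 plus corticosteroid replicate 1). After quantile normalization the lncRNA medians were 0.260 and 0.334. The 120 other lncRNAs at 6.5 or more, with other kinds of names, had medians of 0.197 and 0.145, with 16 higher and 1 lower, and 21 higher and 2 lower, in the paired limma fit. LncRNAs with other names thus also had medians above 0.

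Negative controls moved in the same direction. The 1791 negative controls at 6.5 or more differed by medians of 0.178 without and 0.262 with corticosteroid, by pair 0.248, 0.199 and 0.116, and 0.234, 0.439 and 0.174. Added to the paired limma fit, 1.34% of them were called higher and 0.223% lower without corticosteroid, and 4.58% and 0.112% with it, against 19.7% and 1.32%, and 21.1% and 3.95%, of the lncRNAs. The part of this background shift in the lncRNA medians was not tested. Of the 76 lncRNAs, 3 were above the 95th percentile of the negative controls on all 12 arrays, and 2010016I18Rik was the 1 of them that rose. The lncRNA counts also moved with single arrays in the paired limma fit. Without corticosteroid, the 15 that rose became 5, 1 and 3 without N4 replicate 1, 2 or 3, 9 without N4 plus corticosteroid replicate 2, and 8, 4 and 1 without Y3 replicate 1, 2 or 3. With corticosteroid, the 16 became 7 and 7 without N4 plus corticosteroid replicate 1 or 2, and 9 and 4 without Y3 plus corticosteroid replicate 1 or 2.

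**Figure D3:**
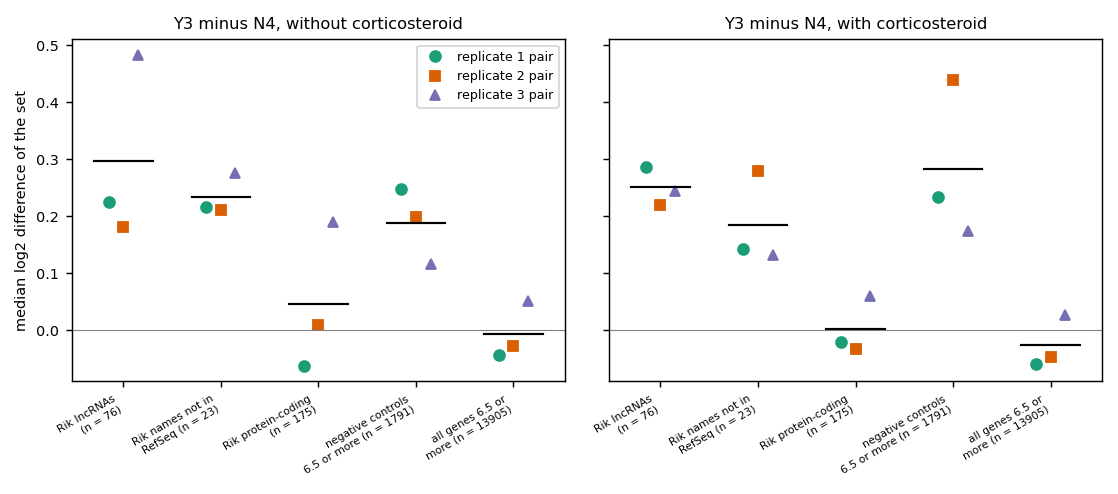
Median Y3 minus N4 difference (log2 signal) of each set of transcripts in each replicate pair, without corticosteroid (left panel) and with it (right panel), with the mean of the 3 pairs as a line. The Rik lncRNAs and the negative controls are above 0 in all pairs, and the protein-coding members lie around 0.

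Of the noncoding members called in either comparison, 26 had a nearest protein-coding gene in the RefSeq table, 12 of them overlapping it, and 24 of those genes were on the array. The neighbour had the sign of the Rik transcript in 14 of 24 cases without corticosteroid and in 12 of 24 with it. In the paired limma fit 2 of the 24 neighbours passed without corticosteroid and 5 with it. Of all genes tested, 2.94% and 6.53% passed, and of the other genes at 6.5 or more, 6.76% and 15.4%. Both neighbours called without corticosteroid had risen with their Rik transcript. Nlrc5, the activator of class I genes, which 9330175E14Rik overlaps, rose by 1.14 ± 0.19 and 1.10 ± 0.19 (log2, SE, adjusted p = 0.0178 and 0.0115). 9330175E14Rik itself was at 7.01, 8.09 and 8.46 in Y3-primed cells, against 6.28, 7.33 and 7.83 in N4-primed cells, and rose by 0.71 ± 0.11 and 0.79 ± 0.11 (adjusted p = 0.0132 and 0.00490). Ifnar1, a chain of the type I interferon receptor, next to A930006K02Rik, rose by 0.91 ± 0.12 and 0.96 ± 0.12 (adjusted p = 0.00836 and 0.00373). Over the 12 arrays these pairs correlated at r = 0.92 each, a description that includes the group differences and the replicate number.

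Peli1, an E3 ubiquitin ligase that the pseudogene 2610024D14Rik overlaps, differed by 0.95 ± 0.23 without corticosteroid (paired limma fit, adjusted p = 0.0634) and rose by 1.19 ± 0.23 with it (adjusted p = 0.0170). 2610024D14Rik was at 9.53, 10.74 and 10.10 in Y3-primed cells with corticosteroid, against 7.53, 9.04 and 9.39 in N4-primed cells with corticosteroid, with no overlap, a rise of 1.48 ± 0.36 (adjusted p = 0.0417), and the pair correlated at r = 0.98. Apobec3, an antiviral cytidine deaminase overlapped by D730005E14Rik, differed by 0.42 ± 0.11 in both comparisons (adjusted p = 0.0861 and 0.0582), while D730005E14Rik rose with corticosteroid by 0.84 ± 0.16 (adjusted p = 0.0181). Nme6, beside the pseudogene 3000002C10Rik, differed by -0.36 and -0.62 (adjusted p = 0.281 and 0.0417). St3gal4, a sialyltransferase, went the other way from the lncRNA 4930581F22Rik that overlaps it. It differed by -0.40 ± 0.12 and -0.60 ± 0.12 (adjusted p = 0.111 and 0.0179), against 0.58 ± 0.10 and 0.47 ± 0.10 for 4930581F22Rik (adjusted p = 0.0187 and 0.0248), at r = -0.83. Dennd2d, overlapped by 2010016I18Rik, differed by -0.001 and -0.32, and H60b, near C920009B18Rik, by -0.11 and -0.05. Whether the probes of overlapping pairs read separate RNAs was not tested.

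**Figure D4:**
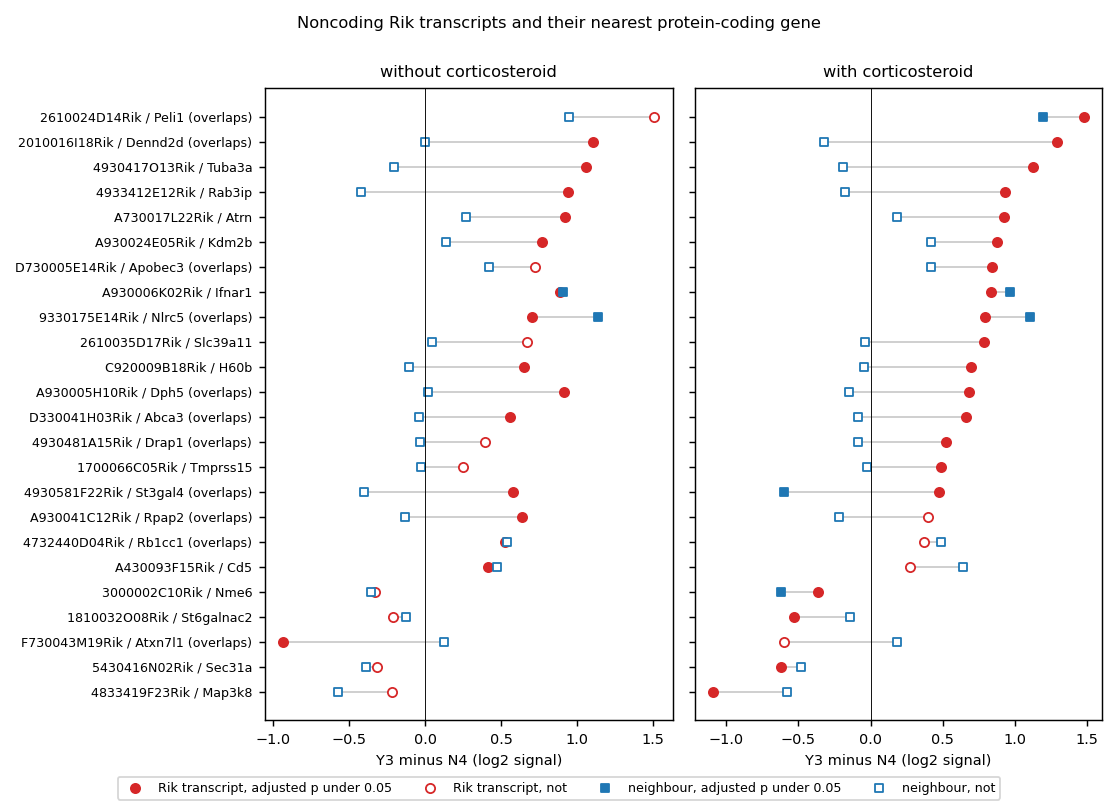
Y3 minus N4 difference (log2 signal) of 24 noncoding Rik transcripts (red circles) and of the nearest protein-coding gene (blue squares), without corticosteroid (left panel) and with it (right panel), with filled symbols for an adjusted p under 0.05 in the paired limma fit. Nlrc5 and Ifnar1 are filled in both panels, and Peli1, Nme6 and St3gal4 in the right panel only. The other neighbours are open and lie on both sides of 0.

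Lists of members by role were written from textbook knowledge, but with earlier results of these data known, so they are not independent of the data. Of 8 interferon and Sp100 relatives listed, 5 were on the array and 3 were members. Of these, 1 rose without corticosteroid and 3 with it. Of all genes tested, 1.7% and 3.44% were called higher, and of the other genes at 6.5 or more, 3.78% and 8.0%. The medians were 0.43 and 0.57 (log2). C130026I21Rik was at 7.86, 8.83 and 8.75 in Y3-primed cells with corticosteroid, against 7.13, 8.02 and 8.33 in N4-primed cells with corticosteroid, and rose by 0.56 ± 0.11 and 0.65 ± 0.11 (SE, paired limma fit, adjusted p = 0.0283 and 0.00895). A630001G21Rik differed by 0.43 ± 0.10 (adjusted p = 0.0515) and rose by 0.57 ± 0.10 with corticosteroid (adjusted p = 0.0109), and A530040E14Rik differed by 0.43 and rose by 0.51. Near-identical gene copies exist in this family, and cross-hybridisation was not tested. For the lists that follow, the shares called in either direction were 2.94% without and 6.53% with corticosteroid of all genes tested. Of the other genes at 6.5 or more they were 6.76% and 15.4%. Of the cell division and DNA repair list, 4 were members and 0 passed (paired limma fit), with 1 of 4 above 0 and medians of -0.42 and -0.22. Pclaf, a partner of the replication clamp, was at -0.64 and -0.21, Cip2a, an inhibitor of the phosphatase PP2A, at -0.52 and -0.37, 2700049A03Rik at -0.32 and -0.23, and 2610524H06Rik at 0.49 and 0.47. Of 9 sterol, mitochondrial and redox members, Selenoh passed with corticosteroid and the median was 0.07 without and -0.07 with it, with the sterol synthesis scaffold Erg28 at -0.21 and -0.29. The list named surface and signalling proteins held 3 members. Of these 4932438A13Rik passed, although its family moves lipids between membranes, so the list name does not describe it. C9orf72 (3110043O21Rik) differed by -1.21 and -0.81 (adjusted p = 0.109 and 0.249). Of the list of small RNA hosts, 2 were members. A930005H10Rik rose by 0.92 ± 0.14 and 0.68 ± 0.14 (adjusted p = 0.0138 and 0.0251), and Snhg16 differed by -0.21 without corticosteroid and fell with it, as given above. Small RNA genes lie in 12 members by the RefSeq annotation, A930005H10Rik not among them, and of these 12 Snhg16 was the 1 that passed, while Zfas1, the host of Snord12, differed by -0.02 and -0.26.

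The corticosteroid comparisons asked which members differed with corticosteroid within each peptide. Under Y3 limma called 0 of 290 members, with 8 at an unadjusted p under 0.05 and 26 in the paired fit, which also called 0. Under N4 it called 0, with 6 and 12 at an unadjusted p under 0.05, and the paired fit also called 0. Of all genes, 0.0% were called under Y3 by both fits, and under N4 0.0% without the block and 0.00253% with it. The member medians were -0.01 under Y3 and 0.01 under N4, against 0.00 and 0.00 for all genes. The values of the members whose 3 arrays did not overlap are given as values. A430078G23Rik differed by 1.06 ± 0.17 under Y3 (log2, SE, paired limma fit, adjusted p = 0.184), by 0.99, 1.14 and 1.05 in the 3 pairs, and by 0.54 ± 0.17 under N4. It was the member with the largest difference under Y3. 4932438A13Rik differed by 0.65 ± 0.16 under Y3 and 0.36 under N4, and D830031N03Rik by 0.57 ± 0.15 and 0.05. A930013F10Rik and D330041H03Rik differed by 0.31 and 0.27 under Y3.

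On the low side under Y3 were 4833419F23Rik (-0.58 ± 0.19), 1600002K03Rik, now Fam174c (-0.46 ± 0.13), 9030617O03Rik, now Dglucy (-0.42 ± 0.11), 4930520O04Rik (-0.37 ± 0.20) and 2410131K14Rik, now Spring1, a factor in the activation of the sterol regulators SREBP (-0.30 ± 0.13), none called (log2, SE, paired limma fit). Dglucy, an enzyme of D-glutamate metabolism, was at 7.20, 7.10 and 6.94 in Y3-primed cells with corticosteroid, against 7.39, 7.53 and 7.59 in Y3-primed cells. Under N4 it was at 7.17, 7.47 and 7.33 with corticosteroid, against 7.73, 7.86 and 7.53 without, a difference of -0.38 ± 0.11. Its groups were apart under both peptides and it was lower with corticosteroid in 6 of 6 pairs (adjusted p = 0.440 and 1.0). Under N4 A130040M12Rik differed by 0.40 ± 0.15, by 0.28, 0.63 and 0.28 in the pairs, and a second row of the same symbol by 0.34. 1700017I07Rik differed by 0.21, D930048G16Rik by 0.12 and 4930526A20Rik by 0.09, and on the low side A430033K04Rik by -0.25 and 3110002H16Rik by -0.08. The share of members with corticosteroid values wholly above was 2.41% under Y3 and 1.38% under N4, against 4.27% and 2.77% of all genes. The share wholly below was 4.48% and 1.03%, against 4.16% and 2.23%. For all genes at 6.5 or more the shares were 2.75% and 0.813% above, and 5.62% and 0.899% below. The comparisons share no array but share the replicate numbers, and over the 290 members the 2 differences correlated at r = 0.46 (a description).

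**Figure D5:**
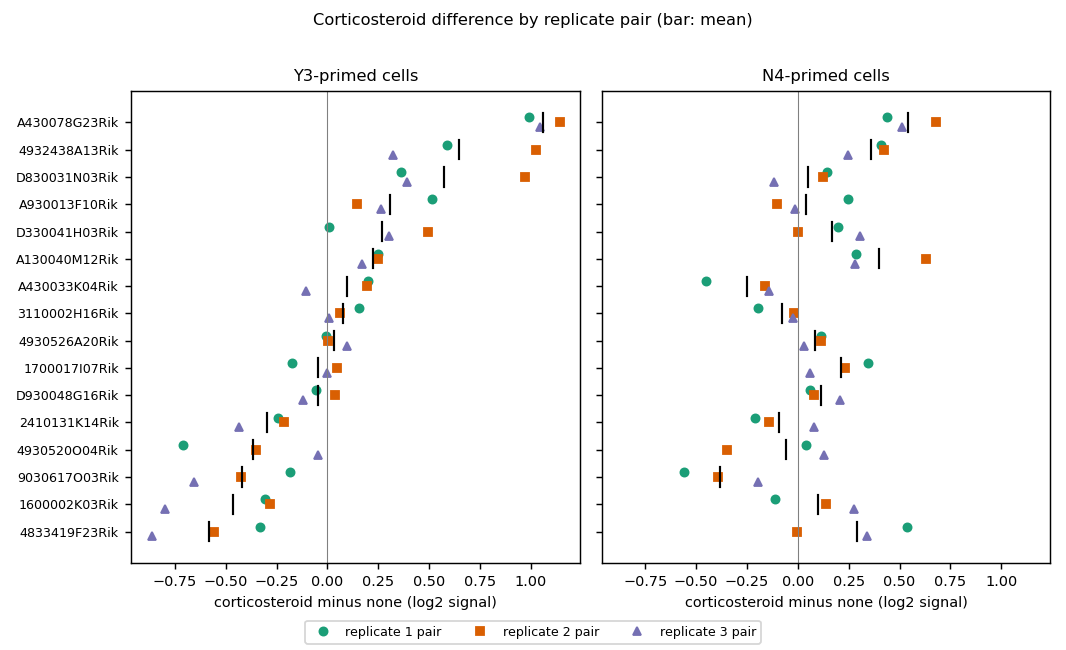
Difference with minus without corticosteroid (log2 signal) in each replicate pair for the 16 members named in the corticosteroid comparisons, in Y3-primed cells (left panel) and N4-primed cells (right panel), with the mean as a bar. A430078G23Rik, 4932438A13Rik and A130040M12Rik are above 0 and 9030617O03Rik is below 0 in all 6 pairs.

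The interaction, the corticosteroid difference under Y3 minus that under N4, was called for 0 members and 0.0% of genes by both limma fits (2 members at an unadjusted p under 0.05 without the block and 8 in the paired fit). The median over members was -0.01. Members were picked where the 3 corticosteroid differences under Y3 lay wholly above or wholly below the 3 under N4. Among them, the members with the largest positive values were 5730508B09Rik (0.60 ± 0.52, SE of the paired fit), D830031N03Rik (0.52 ± 0.21), A430078G23Rik (0.52 ± 0.24), C030013D06Rik (0.49 ± 0.19) and 3110043O21Rik (0.39 ± 0.49), on the log2 scale. The largest negative ones were 4833419F23Rik (-0.87 ± 0.27), 1600002K03Rik (-0.56 ± 0.19), I830127L07Rik (-0.53 ± 0.68), Snhg16 (-0.32 ± 0.17) and 5430416N02Rik (-0.30 ± 0.16). All had an adjusted p of 0.9999.

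Some members have patterns that other rows of the array shared. By Pearson correlation over the 12 arrays, the genes most like 2010016I18Rik were the members C130026I21Rik (r = 0.992) and 9330175E14Rik (r = 0.988), followed by Slc38a9 (r = 0.986). Those most like Hpf1 were the replication factor gene Gins2 (r = 0.984), Orc6 (r = 0.981) of the origin recognition complex, and Slc9a5 (r = 0.978). A930006K02Rik was most like AB124611 (r = 0.970), 9930111J21Rik1 (r = 0.962) and 9930111J21Rik2 (r = 0.959). The correlations include the replicate number, which all genes share. Of 7 members with several rows, some had rows that disagreed. 1110032A03Rik was at 0.13 for the row used and 0.64 for the other without corticosteroid (Y3 minus N4), and at -0.16 and 0.48 with it. 2010111I01Rik was at -0.29 with corticosteroid for the row used and at 0.03 to 0.25 for its 4 other rows. 4732440D04Rik, which rose without corticosteroid, was at 0.52 and 0.37 for the row used and at -0.05 in both comparisons for its other row, whose mean log2 signal was 4.77. The rows of A130040M12Rik were alike at 0.66 and 0.56, and 0.48 and 0.51.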

How the data were processed

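RNA from 12 cultures was labelled and read on Affymetrix mouse transcriptome arrays, as the labels and headers state. The deposited values are gene-level signal intensities on a linear scale, which the authors made with SST-RMA, per the file headers. The submitters' processing notes name RMA and no version of it. RMA subtracts background and brings arrays to a common distribution, so a shift shared by all genes is removed from the values. The table's columns are named by letters (N or Y, with S for corticosteroid) and a number, and the groups rest on reading those letters. No source states the genome build of the files, so sequences and coordinates come from RefSeq alone.

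The log2 of each signal was taken, adding nothing. One row per symbol (the highest mean) left 39463 genes from 40123 transcript clusters with a symbol. The test was lmFit and eBayes of limma 3.58.1 (run under R 4.3.3), with a mean per group over 12 arrays, two-sided, Benjamini-Hochberg over all genes, threshold 0.05, without and with the replicate number as a block. The labels give each group replicates 1 to 3 but no pairing. Same-numbered arrays had correlations above 0 in all 18 pairs (lowest 0.114), so block values are printed beside the results. Y3 replicate 2 correlated more with N4 replicate 3 (0.422) than with N4 replicate 2 (0.114), so the pairing across peptides is uncertain. In simulated data for Y3 minus N4, 200 of 39463 genes were shifted by 2 (log2). Of these, limma recovered 75.5% without and 92.0% with the block, with 8 and 9 false calls. The 2 figures come from separate simulated sets, each with the residual SD of its own fit and independent noise on every array. Neither set held a replicate effect, so the figures cannot show whether the block helps in these arrays. The member differences for Y3 minus N4 without corticosteroid ran from -1.449 to 1.94, all smaller in size than the simulated shift. Recovery at smaller shifts was not tested, and neither was the pairing by replicate number.

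The members, role lists, naming rule and paired alternatives were chosen with earlier results of these data known. The rule named, per comparison, the 10 highest and 10 lowest called members, and where fewer than 5 were called in a direction, up to 5 with non-overlapping groups. Other members are named as neighbours, list members or by their leave-one-out record, after their values were seen. Tables were made with pandas 2.3.3 and numpy 2.4.6 in Python 3.11.15, and figures with matplotlib 3.10.9. Alternatives were quantile normalization, median centring, a level filter, array weights, a variance trend, all rows, other member levels and each array left out. The number of arrays limits the precision.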

Additional observations from a re-analysis of the deposited data

Results flagged for a closer look

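Of the named members, 2 had a corticosteroid difference that was positive in all 3 pairs under Y3 and negative in all 3 pairs under N4. For 3110002H16Rik, now Rmc1, the difference was 0.08 under Y3 and -0.08 under N4, which are 0.154 apart (log2). For C030013D06Rik it was 0.16 and -0.33, which are 0.491 apart. The test of the difference itself passed for neither (limma interaction, adjusted p = 0.9999), and 7 of the 290 members had opposite signs in all pairs. The share of all genes with such signs is not given here, so this count is a description only.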

How the results depend on the processing

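With the replicate block, the members called became 33 and 46 for Y3 minus N4 without and with corticosteroid (0 and 0 without it), the genes called 1160 and 2576 (12 and 101), and the genes called for corticosteroid under N4 1 (0). The block changed no other count of calls. Array weights without the block gave 2 and 17 members and 78 and 1562 genes. With these weights 1 of 76 lncRNAs and 0 of 175 protein-coding members were called higher without corticosteroid, and 0 and 0 lower. With corticosteroid 3 of 76 lncRNAs and 6 of 175 protein-coding members were called higher, and 1 and 3 lower. The larger share of lncRNAs among calls under corticosteroid was thus seen in the paired fit and not with array weights. A level filter gave 23 genes without corticosteroid. With corticosteroid, median centring gave 62, a variance trend 27 and all rows 54 genes. When each array was left out, genes called ranged from 0 to 26 without and from 0 to 205 with corticosteroid, and members with corticosteroid from 0 to 3. In the paired fit members ranged from 3 to 39 without and from 14 to 49 with it. Median member differences then ranged from 0.0504 to 0.120 with corticosteroid, and for corticosteroid under Y3 from -0.0631 to 0.0365. In the paired fit quantile normalization gave 31 and 50 members and median centring 25 and 48. Interaction values changed sign with an array left out for 3 named members, none of them called. For 3110043O21Rik the value was -0.083 without N4 replicate 3, in a range from -0.083 to 0.97. For 5730508B09Rik it was -0.035 when the first N4 array with corticosteroid was dropped, -0.108 without Y3 replicate 1 and -0.024 when the second Y3 array with corticosteroid was dropped, the highest being 1.29. For I830127L07Rik it was 0.247 without Y3 replicate 1 and 0.001 when the third Y3 array with corticosteroid was dropped, the lowest being -1.256. The cause of these changes was not tested. Signals near the negative controls limit most lncRNA values.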

Other observations

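I830127L07Rik, now Ly6a2, a relative of the T cell surface protein Sca-1, had the largest peptide difference of all members without corticosteroid but was not called. It was at 9.74, 7.85 and 6.98 (log2 signal) in Y3-primed cells, against 6.34, 6.75 and 5.66 in N4-primed cells, a difference of 1.94 ± 0.48 (SE, paired limma fit, adjusted p = 0.0711). With corticosteroid it was at 8.84, 6.99 and 6.33 in Y3-primed cells, against 6.04, 6.38 and 5.50 in N4-primed cells, a difference of 1.41 ± 0.48 (adjusted p = 0.139). Its highest values were on the replicate 1 arrays of the Y3 groups, on which A430078G23Rik and 2010016I18Rik were each lowest within those groups. B230359F08Rik, which RefSeq lists as the receptor segment Trav13-5, was at 6.79, 8.08 and 7.65 in Y3-primed cells with corticosteroid, against 6.06, 7.11 and 7.35 in N4-primed cells with corticosteroid, and rose by 0.67 ± 0.16 (adjusted p = 0.0437), in cells whose receptor is a transgene.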
